A study of Homo sapiens with 6 samples.

Results

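SORCS2 and MIR4274 are 2 genes of the short arm of human chromosome 4 that share 1 stretch of DNA, and RNA pol II occupancy along that stretch was compared here between HepG2 cells with SHP-1 (WT) and without it (SHP-1 KO). The regions described are those that the deposited lists of occupied regions assign to either gene, and the pair was selected on these same lists, because MIR4274 had many regions in WT cells and no region in SHP-1 KO cells for both antibodies. The difference between the cells at this locus is therefore a description and carries no test. Of 271336 regions in 4 lists, 51 were assigned to the pair. They were 12 of 46045 RPB1 regions in WT cells, 1 of 41605 RPB1 regions in SHP-1 KO cells, 38 of 102674 phospho-Ser2 RPB1 regions in WT cells and 0 of 81012 phospho-Ser2 RPB1 regions in SHP-1 KO cells.

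RPB1 is the largest subunit of RNA pol II, and its C-terminal repeats gain phosphate on serine 2 as the enzyme moves through the body of a gene, so that phospho-Ser2 RPB1 marks elongating polymerase. SORCS2 encodes a sorting receptor with a VPS10P domain that is best known from neurons, where it binds precursors of the neurotrophins together with the receptor p75NTR. MIR4274 is a microRNA gene that lies in an intron of SORCS2. SHP-1, the product of PTPN6, is a tyrosine phosphatase.

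The ChIP-seq libraries came from HepG2 cells, a hepatoma line, that were either a CRISPR control (SHP-1-WT) or a CRISPR knockout of SHP-1 (SHP-1-KO), both without further treatment. There was 1 library per cell type with the antibody ab817 against RPB1 and 1 with ab5095 against phospho-Ser2 RPB1, plus 1 input per cell type, which served as background for both antibodies and was not analysed here. The KO cells were grown from single cells after targeting of PTPN6, and the paper describes its lines without the deletion as clonal too. Loss of SHP-1 and any other difference between KO and control lines, whichever line carries it, therefore cannot be told apart. No value has a replicate check, and the lists hold no read counts, so depth is unknown. Fold enrichments over input were ranked only within 1 list. Where values of WT and KO cells are given side by side, their difference is not a measured change.

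As checks of the labels, the hepatocyte genes ALB, AFP and APOB had 1 to 6 regions in each of the 4 lists. APOA1 had none in the KO RPB1 list and 1 to 5 in the others. PTPN6 itself had 3 RPB1 regions in WT and 1 in KO cells and 1 phospho-Ser2 RPB1 region in each, which does not test the knockout of the protein. The median fold enrichment was 5.51 and 5.62 in the WT and KO RPB1 lists and 3.69 and 3.8 in the WT and KO phospho-Ser2 RPB1 lists.

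SORCS2 runs from chr4:7192538-7742836 on the forward strand (hg38, GENCODE release 44) and spans 550.3 kb. Its longest transcript has 27 exons, and introns 1, 2 and 3 take up 203.2, 135.2 and 106.7 kb. The MIR4274 hairpin lies in intron 2 at chr4:7460028-7460118, on the same strand and 267.5 kb past the SORCS2 start. Its sequence from RefSeq (GRCh38.p14) is shown first because the regions that carry its name do not cover it, with the mature microRNA in capitals in the hairpin and the seed, bases 2 to 8, in capitals in the mature form. No other mature microRNA among the 2370 names in the RefSeq table shared this seed.
MIR4274 hairpin: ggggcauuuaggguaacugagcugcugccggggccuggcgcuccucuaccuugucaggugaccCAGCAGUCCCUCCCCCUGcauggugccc
hsa-miR-4274: cAGCAGUCccucccccug

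The 23 WT regions assigned to MIR4274 start 55 kb or more downstream of the microRNA and lie in introns 2 and 3 and over exon 3 of SORCS2. The deposited assignment goes to the nearest annotated start, and no list held a region over the microRNA gene. The closest WT RPB1 region began 55 kb and the closest WT phospho-Ser2 RPB1 region 75.9 kb from the MIR4274 start. In KO cells, the nearest regions were 188.4 kb away for RPB1, in SORCS2, and 391.5 kb away for phospho-Ser2 RPB1, at GRPEL1. These 23 regions are described below as the upstream cluster of SORCS2, and the 27 WT regions assigned to SORCS2 itself as the downstream cluster.

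The strongest WT region for each antibody lay at the same place in intron 3. For RPB1 it was chr4:7539008-7541394, 2387 bp long, enriched 16.6-fold over input (−log10 q-value 61.4.) For phospho-Ser2 RPB1 it was chr4:7538667-7540880, 2214 bp long, enriched 9.84-fold over input (−log10 q-value 34.3.) The 300 bases around the phospho-Ser2 RPB1 summit, at chr4:7539793-7540092 on the forward strand, are shown because they hold a tandem repeat. Capitals mark the stretch in which 100 consecutive bases were compared with the bases 25 positions further on, with 77 equal. The search for repeats was added after the sequences had been seen.
phospho-Ser2 RPB1 summit in intron 3: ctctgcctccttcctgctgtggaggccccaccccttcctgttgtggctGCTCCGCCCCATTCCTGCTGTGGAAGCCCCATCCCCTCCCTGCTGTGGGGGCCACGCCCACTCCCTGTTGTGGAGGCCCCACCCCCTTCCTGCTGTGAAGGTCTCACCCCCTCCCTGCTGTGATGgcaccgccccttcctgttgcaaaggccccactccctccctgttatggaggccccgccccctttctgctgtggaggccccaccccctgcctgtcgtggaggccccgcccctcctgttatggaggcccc

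At least 60 of 100 equal bases at a spacing of 10 to 60 were found in 3 of the 12 WT RPB1 summit windows at the locus and in 2.64% of all windows of that list. For phospho-Ser2 RPB1 it was 1 of 38 windows, against 0.841% of the list. How reads in repeats were placed is not given in the sources used here, and the part of the repeats in the fold enrichments was not tested.

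Called regions began far inside the gene. No list held a region in the first 322.5 kb of SORCS2, which is 58.6% of its length. The region nearest to the SORCS2 start lay upstream of it, at LINC02447, 88.3 kb away for RPB1 in both cell types and 89.1 kb away for phospho-Ser2 RPB1 in WT cells. The next annotated starts inside the gene were 133.1 and 118.8 kb from the nearest region of any list. The fourth annotated start, near the end of the gene, had a WT phospho-Ser2 RPB1 region 2.42 kb away. None of the 51 regions was annotated as promoter, a class that held 44.6% of WT RPB1 and 23.9% of WT phospho-Ser2 RPB1 regions overall. Introns held 11 of the 12 WT RPB1 regions and 34 of the 38 WT phospho-Ser2 RPB1 regions, against 25.5% and 44.5% of the respective lists.

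**Figure D1:**
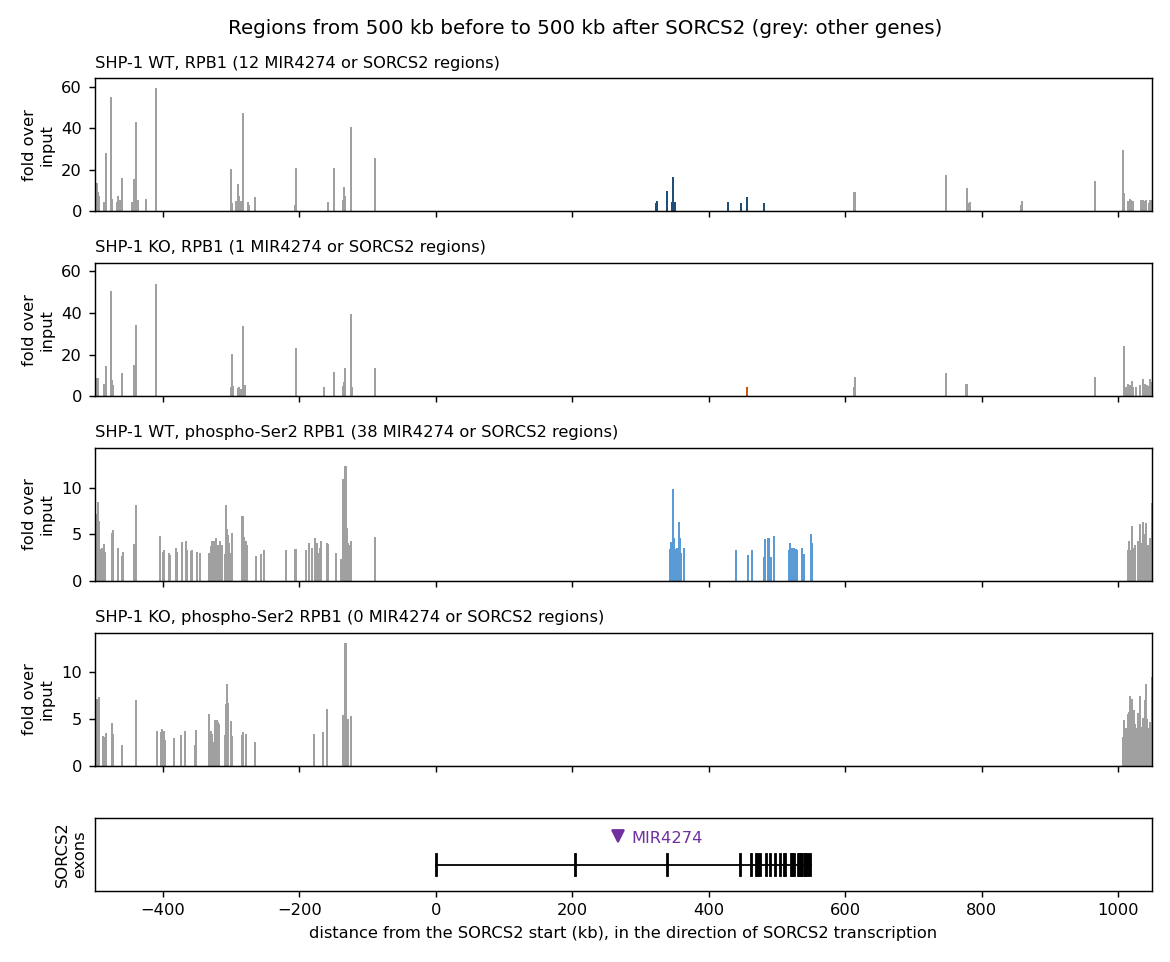
Fold enrichment over input of every region from 500 kb before to 500 kb after SORCS2 in the 4 lists, against distance from the SORCS2 start in kb, with exons as black boxes and the MIR4274 gene as a triangle (bars are drawn at least 3 kb wide, and grey bars are other genes). Coloured bars stand for the 12, 1, 38 and 0 regions of the pair, and none of them lies in the first 322.5 kb of the gene.

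The upstream cluster held 6 RPB1 and 17 phospho-Ser2 RPB1 regions in WT cells within 41.1 kb. RPB1 regions covered 14.1% of this stretch and phospho-Ser2 RPB1 regions 20.6%. Its RPB1 regions came first, with 2 in intron 2 before any phospho-Ser2 RPB1 region, the stronger at chr4:7516268-7516625 enriched 5.17-fold over input (−log10 q-value 7.47.) Next came chr4:7530862-7532347, enriched 9.86-fold over input (−log10 q-value 19.8.) The deposited annotation places this region in exon 3, and its summit lies just past it in intron 3. The other 3 lay in intron 3, at the strongest region and on either side of it, with chr4:7538192-7538391 at a fold enrichment of 4.59.

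All 17 phospho-Ser2 RPB1 regions of the upstream cluster had their summit in intron 3, between 7535970 and 7556145. They were closely packed, with a median of 293.5 bp from the end of one to the start of the next. The second strongest was chr4:7548741-7549736, enriched 6.35-fold over input (−log10 q-value 12.2.) Another 2 reached 4.57, at chr4:7540953-7541684 and chr4:7549825-7550254, and the remaining 13 lay between 2.62 and 4.14. KO cells had no region of either antibody in these 41.1 kb.

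After 65.2 kb without a region in any list, the downstream cluster extended over 122.2 kb to the end of the gene, with 6 RPB1 and 21 phospho-Ser2 RPB1 regions in WT cells. The antibodies were distributed differently along it. All 6 RPB1 regions lay before exon 9, with 1 in intron 3, 4 in intron 4 and 1 in intron 8. Phospho-Ser2 RPB1 had 5 regions before exon 9 and 16 from there on, of which 2 lay in the 3′ UTR and 1 just past the gene end. A −log10 q-value of 5 or more was reached by 1 of these 6 RPB1 and 5 of these 21 phospho-Ser2 RPB1 regions. The difference in distribution thus rests mostly on weak calls in 1 library each and was not tested. The median space between neighbouring phospho-Ser2 RPB1 regions was 2667.5 bp.

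For RPB1 the median fold enrichment was 4.88 in the upstream and 4.06 in the downstream cluster, and for phospho-Ser2 RPB1 it was 3.56 in both. In the downstream cluster, the strongest RPB1 region was chr4:7648325-7648765 in intron 4, with 6.99 and a −log10 q-value of 11.4. The other 5 RPB1 regions of this cluster lay between 4.01 and 4.51. For phospho-Ser2 RPB1, the strongest of this cluster was chr4:7741775-7742081 in the 3′ UTR with 5.08. It was followed by chr4:7688579-7688851 in intron 10 with 4.83 and chr4:7679967-7680372 in intron 9 with 4.57. The other 18 ranged from 2.53 to 4.52.

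**Figure D2:**
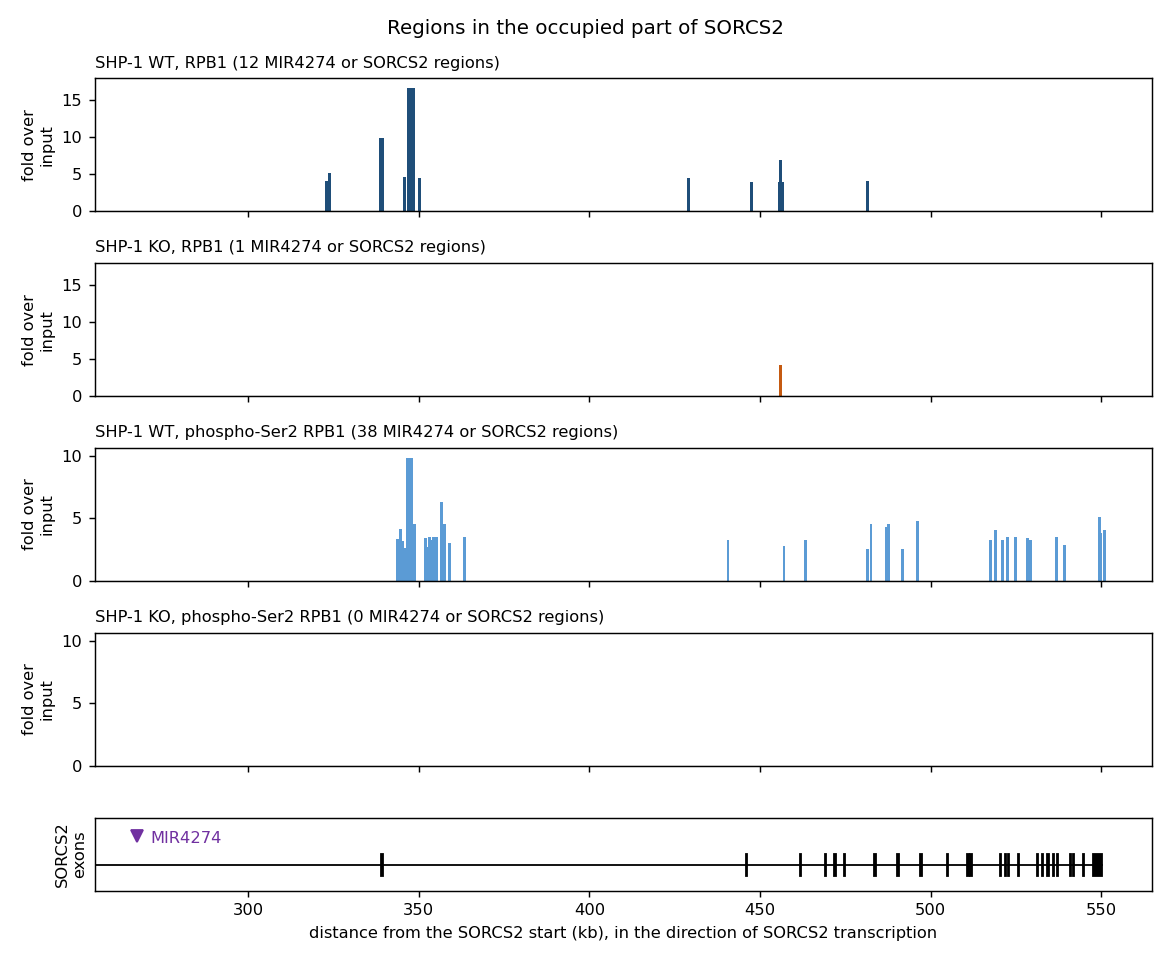
Fold enrichment over input of the same regions over the part of SORCS2 that holds any, against distance from the SORCS2 start in kb (bars are drawn at least 0.8 kb wide). WT cells show the upstream cluster around exon 3, with the highest bars of 16.6 and 9.84 in intron 3, and the downstream cluster to the end of the gene, and KO cells show 1 bar of 4.22.

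SORCS2 kept 1 region in KO cells, an RPB1 region in intron 4 at chr4:7648473-7648706 enriched 4.22-fold over input (−log10 q-value 3.19.) It lies inside the strongest WT RPB1 region of the downstream cluster, with its summit at 7648514 and the WT summit at 7648609. In its list it stood at percentile 21.8 by fold enrichment, and the WT region at percentile 62.4 of its own. The other 3 WT RPB1 regions of intron 4, each with a fold enrichment of 4.01, had no counterpart. The forward strand of the whole kept region is printed without capitals, because it holds no match to the 4 motifs searched.
RPB1 region of SORCS2 in KO cells: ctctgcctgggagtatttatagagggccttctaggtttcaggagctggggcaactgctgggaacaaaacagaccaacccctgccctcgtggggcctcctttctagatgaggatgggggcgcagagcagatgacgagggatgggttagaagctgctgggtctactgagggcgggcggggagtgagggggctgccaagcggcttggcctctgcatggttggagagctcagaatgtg

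Of the 12 WT RPB1 regions at the locus, 11 had no KO RPB1 region over them (91.7%, 95% Wilson interval 64.6% to 98.5%), and the share over the whole WT RPB1 list was 38.1%. Of the 38 WT phospho-Ser2 RPB1 regions, 38 had no KO region over them (100%, 90.8% to 100%), against 47.8% of the whole list. By gene, the losses were 6 of 6 and 17 of 17 for MIR4274 and 5 of 6 and 21 of 21 for SORCS2. The single KO RPB1 region overlapped a WT region, where 25.1% of all KO RPB1 regions had none. Since the pair was picked on this contrast, nothing is read from these shares. The intervals cover counting error only.

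The WT regions differed widely in strength. Most were weak for their list, since 9 of 12 WT RPB1 and 25 of 38 WT phospho-Ser2 RPB1 regions lay at or below the list median. The strongest in intron 3 did not follow this pattern. By fold enrichment, the RPB1 region stood at percentile 79.1 and the phospho-Ser2 RPB1 region at percentile 97.9 of their whole lists. Among the 17550 WT RPB1 regions without a KO region, whose median was 4.51, the RPB1 region ranked 19. The phospho-Ser2 RPB1 region ranked 10 among 49090 such regions, whose median was 3.44. Regions without a KO region are set apart by the contrast on which the pair was picked, so these ranks are a description.

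**Figure D3:**
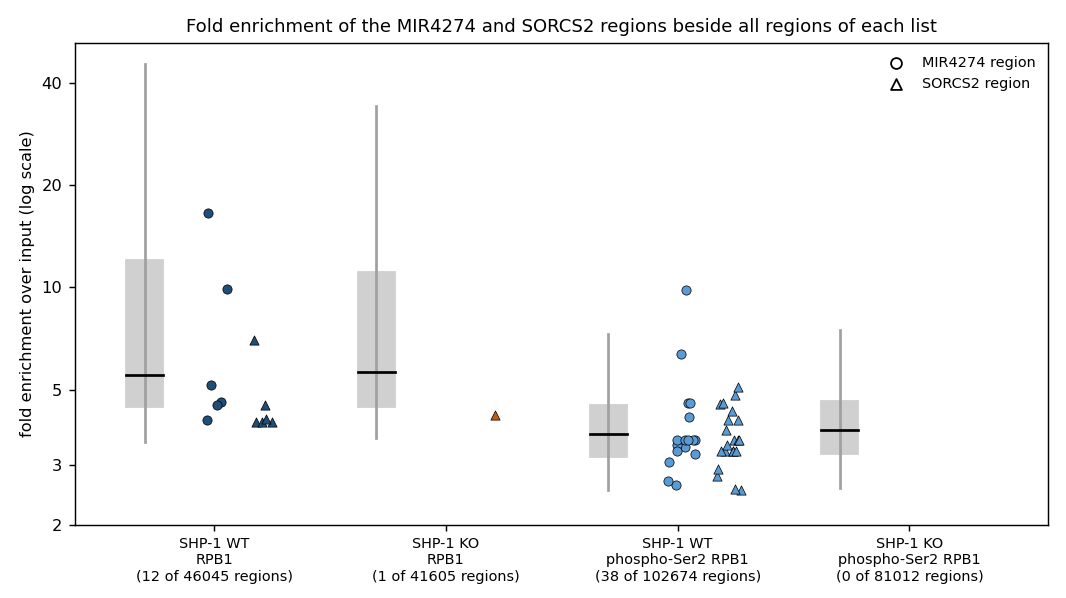
Fold enrichment over input on a log scale for each MIR4274 region (circles) and SORCS2 region (triangles) beside all regions of the same list (line, 5th to 95th percentile, box, middle 50%, black bar, median). WT RPB1 regions reach 16.6 beside a list median of 5.51, WT phospho-Ser2 RPB1 regions reach 9.84 beside 3.69, and most points lie at or below the bar.

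Within WT cells, where the selection rule made no comparison, the antibodies shared little of their positions at the locus. A WT phospho-Ser2 RPB1 region overlapped 3 of the 12 WT RPB1 regions (25%, 8.89% to 53.2%), whereas 58.9% of the whole WT RPB1 list and 59.6% of its intron regions were overlapped. In the other direction, 4 of 38 phospho-Ser2 RPB1 regions were overlapped by RPB1 (10.5%, 4.17% to 24.1%), against 24.2% of the list. Of the 3 shared RPB1 regions, 2 were in intron 3 and 1 in intron 8. Most regions at the locus were weak for their list, and the list shares were not matched for strength. Whether the low overlap goes beyond that of other weak regions was not tested. Regions of 1 gene in 1 library are not replicates, and these shares were not tested against each other.

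The base composition of the summit windows was set beside that of each list. The median GC content was 57.8% for the 12 WT RPB1 windows against 56.7% for the list, and 54.7% for the 38 WT phospho-Ser2 RPB1 windows against 44.3%. Intron regions alone had medians of 50.3% and 41.7% in these lists. Motifs were searched on both strands of these 300 bases. TTCNNNGAA, the core bound by STAT5, was found in 0 of 12 RPB1 and 3 of 38 phospho-Ser2 RPB1 windows, against 5.45% and 9.39% of the lists. TGANTCA, bound by AP-1, was in none of the 50 windows, with 6.43% and 8.77% of the lists. TGTTTAC, bound by FOXA factors, was in 0 and 2 windows (2.53% and 4.59% of the lists), and CAAAGTCCA, part of an HNF4 site, in 0 and 1 (0.623% and 0.519%).

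The space without any KO region was long. KO regions of either antibody bounded a stretch at chr4:7104211-7648472, from LINC02447 to the kept region in intron 4. It was 544.3 kb long and held 9 RPB1 and 18 phospho-Ser2 RPB1 regions of WT cells. Much of its length held no WT region either, including the first 322.5 kb of SORCS2 and the 65.2 kb between the clusters. The next stretch, chr4:7648707-7805634, ran to AFAP1 over 156.9 kb and held another 2 and 20. Of the 26870 such stretches of chromosomes 1 to 22 and X with a WT region, 8 held more WT regions than the 27 of the first, and the highest number was 107. With RPB1 alone, 26 of 10432 held more than its 9. For phospho-Ser2 RPB1 alone, no KO region was found over 1131 kb, chr4:7068575-8199142, and 3 of 22934 held more than its 39 WT regions. Of these 39, the 38 of the pair lay within 207.6 kb and the other 1 at LINC02447. Most of the 1131 kb thus held no WT phospho-Ser2 RPB1 region either. When only WT regions with a −log10 q-value of 5 or more counted, the first stretch held 9 and ranked 21. The locus was picked for having many WT and few KO regions, so these ranks only describe it.

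**Figure D4:**
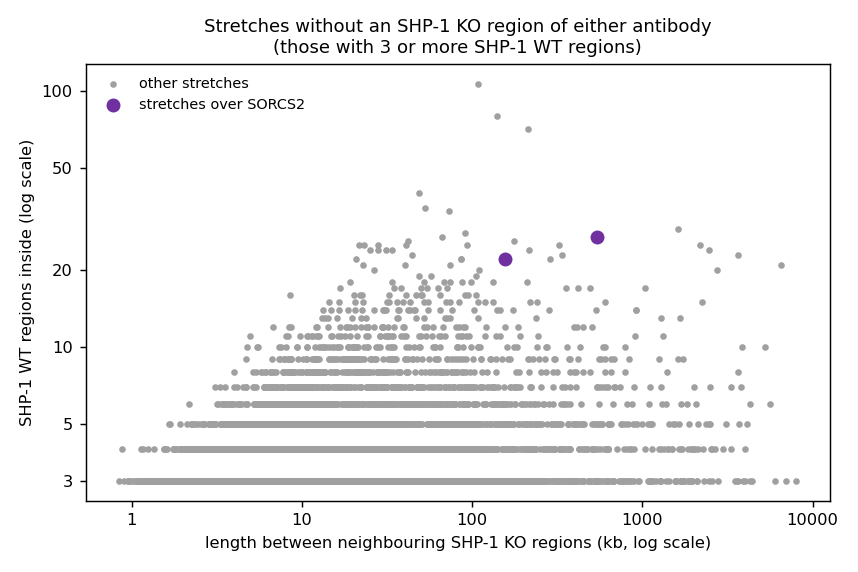
Number of WT regions of both antibodies in each stretch between neighbouring KO regions against the length of the stretch in kb, both on log scales, for stretches with 3 or more WT regions. The stretches over SORCS2 hold 27 WT regions in 544.3 kb and 22 in 156.9 kb.

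Within 500 kb of SORCS2, regions were assigned to 13 other genes, and 11 of them had a region in KO cells. The other 2, CCDC96 and LOC100129931, had 1 WT region each and no KO region. In RPB1 regions, 6 of the 13 had fewer in KO than in WT cells, 3 had more and 4 as many. Over all 16428 genes with a region in any list, 33.6% had fewer RPB1 regions in KO cells and 22.7% more. For phospho-Ser2 RPB1, 7 of the 13 had fewer, 1 more and 5 as many, against 48.3% with fewer and 18.7% with more over all genes. Before SORCS2, RPB1 regions numbered 43 in WT and 30 in KO cells and phospho-Ser2 RPB1 regions 91 and 59, and KO regions overlapped 28 (65.1%) and 39 (42.9%) of the WT regions. After SORCS2, the numbers were 27 and 32 for RPB1 and 30 and 38 for phospho-Ser2 RPB1, with 21 (77.8%) and 28 (93.3%) of the WT regions overlapped. These are shares with an overlap. The whole WT lists were counted the other way, with 38.1% of RPB1 and 47.8% of phospho-Ser2 RPB1 regions lacking a KO region over them.

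The RPB1 regions that flank SORCS2 most closely were present in both cell types. At LINC02447, a noncoding RNA gene, the RPB1 region had a fold enrichment of 25.8 in WT cells (percentile 85.5 of its list) and of 13.4 in KO cells (percentile 78.4). Its 1 phospho-Ser2 RPB1 region was in the WT list and had no counterpart in KO cells. AFAP1, which encodes an actin filament-associated protein, had 2 RPB1 regions in WT and 3 in KO cells. The nearest of them to SORCS2 was enriched 9.46-fold in WT cells (percentile 70.9), and the KO regions that overlapped it were enriched 9.32-fold (percentile 71.6) and 4.43-fold (percentile 25.1). No phospho-Ser2 RPB1 region was assigned to AFAP1. TBC1D14, a regulator of autophagy, had 12 and 9 RPB1 and 27 and 12 phospho-Ser2 RPB1 regions. KIAA0232 had 8 and 4 RPB1 and 32 and 23 phospho-Ser2 RPB1 regions. GRPEL1, a cochaperone of mitochondrial protein import, had 2 and 3 RPB1 and 7 and 5 phospho-Ser2 RPB1 regions. SH3TC1 went the other way, from 19 to 26 RPB1 and from 30 to 40 phospho-Ser2 RPB1 regions.

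**Figure D5:**
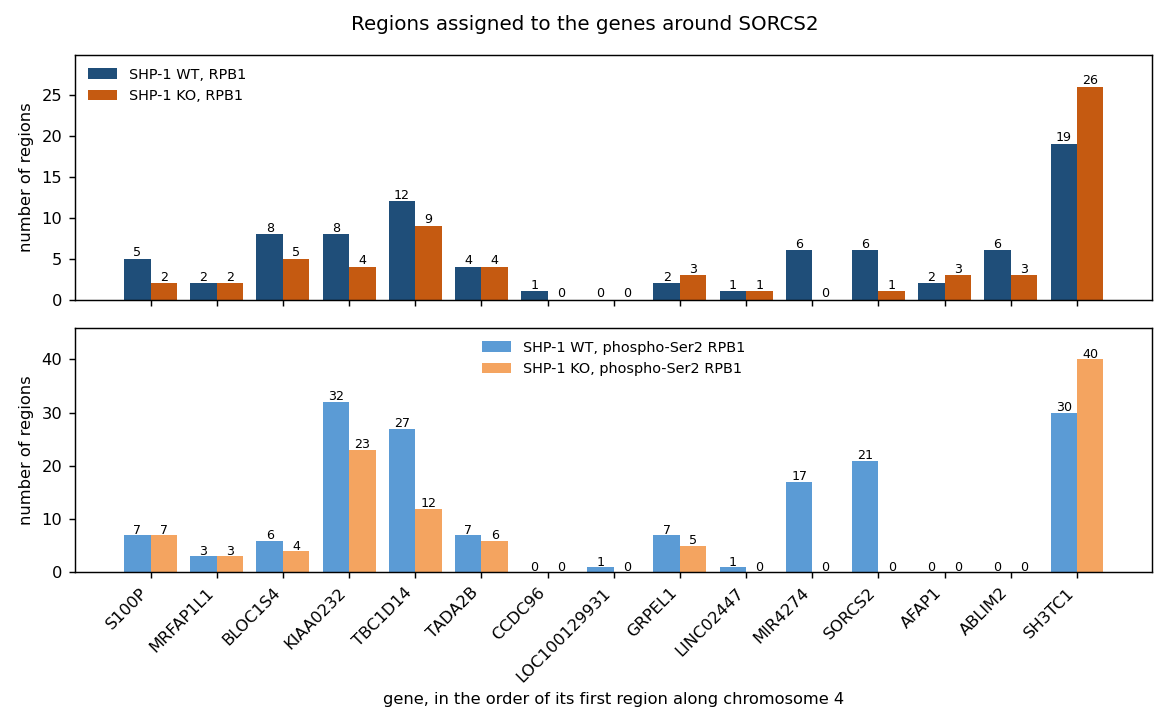
Number of regions assigned to each gene around SORCS2, in the order of the first region along chromosome 4, for RPB1 (top) and phospho-Ser2 RPB1 (bottom) in WT and KO cells. MIR4274 goes from 6 and 17 regions to 0 and 0 and SORCS2 from 6 and 21 to 1 and 0, while SH3TC1 has more regions in KO cells.

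The relatives and partners of SORCS2 were looked up in the same lists. Of 15 genes, 7 had a region in any list. In RPB1 regions, 3 had more in KO cells, 4 as many and 0 fewer, and in phospho-Ser2 RPB1 regions 2 had more and 5 fewer, to be read beside the shares over all genes given above. Of the 4 with as many RPB1 regions, VPS35 and VPS29 had 0 in both cell types. Among the other VPS10P receptors, SORT1, which encodes sortilin, had 1 RPB1 region in WT and 2 in KO cells and 8 and 5 phospho-Ser2 RPB1 regions. SORL1 had 4 and 5 RPB1 and 27 and 8 phospho-Ser2 RPB1 regions. Both had an RPB1 region at a promoter in both cell types, which SORCS2 did not, with a highest RPB1 fold enrichment of 29 and 30.5 for SORT1 and of 22 and 16 for SORL1.

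SORCS1 and SORCS3 had no region in any list. The neurotrophin genes BDNF, NTF3 and NTF4 and the receptor genes NGFR, NTRK2 and NTRK3 had none either. GRN, which encodes the sortilin ligand progranulin, had 3 RPB1 regions in each cell type and 3 and 2 phospho-Ser2 RPB1 regions. The retromer genes, whose products return sorting receptors from endosomes, had few. VPS26A had 1 and 2 RPB1 and 7 and 5 phospho-Ser2 RPB1 regions, and VPS26B 1 and 1, and 1 and 2. VPS35 had 5 and 7 and VPS29 6 and 2 phospho-Ser2 RPB1 regions, with no RPB1 region assigned to either. All these counts follow the deposited assignment to the nearest annotated start, and regions of these genes were not looked up by position.

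The genes nearest to MIR4274 in pattern were taken as those with the most WT regions and no KO region, the contrast on which MIR4274 itself was picked. Of 15991 genes with a WT region of either antibody, 8.85% had no KO region. From the highest number of WT regions down, the 5 genes named were MIR551A with 39, LOC100506474 with 23, as many as MIR4274, NPSR1 with 22, and LINC02027 and MIR595 with 20 each. NPSR1, LINC02027 and MIR595 had phospho-Ser2 RPB1 regions only, and LOC100506474 had 2 RPB1 regions. MIR551A, on chromosome 1, had 28 RPB1 and 11 phospho-Ser2 RPB1 regions, and all 39 lay in a KO-free stretch of 140.2 kb at chr1:3484012-3624202. Among microRNA genes, 663 had a WT region and 132 of these no KO region.

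For SORCS2, likeness was measured as the Euclidean distance between the 4 values of log2(regions + 1), over 7930 genes with at least 10 regions. The nearest was FMO5, which encodes a flavin monooxygenase, at 0.37, with 5 and 1 RPB1 regions in WT and KO cells and 17 and 0 phospho-Ser2 RPB1 regions. MAPT-IT1 followed at 0.89 (3 and 1, 16 and 0), then WDR13 at 0.9 (7 and 2, 13 and 0) and MIR4274 itself at 1.04. NDUFC2, a subunit of mitochondrial complex I, came next at 1.09 (11 and 1, 12 and 0).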

How the data were processed

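ChIP-seq for RPB1 and its phospho-Ser2 form was done in WT and SHP-1 KO cells of the HepG2 line, with groups taken from the sample labels. The authors trimmed reads with Trimmomatic, aligned them to GRCh38/hg38 with BWA and used MACS2 to call narrow peaks per library, with the matching input as background. Tool versions and the handling of duplicate or repeat reads are not given in the sources used here. The deposited lists give each region's fold enrichment over input at the summit, a ratio, and the −log10 of its q-value, with positions and the nearest gene as the authors annotated them. A further deposited table with the authors' own comparison (window numbers, direction and p-values) was not used.

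The members, lists and tests were chosen with earlier results of these data known. Regions were taken by gene symbol. Overlap required at least 1 bp. All 271336 regions fell within hg38 chromosome lengths. Exons came from GENCODE release 44. Windows of 300 bases were centred on summits. Genes named were the pair, genes with a region within 500 kb, the family list, and 5 genes most like each member. In each list with over 5 regions, the 5 strongest were described singly, with ties. Some items of the family list and 1 sequence are not reported here. PTPN6, ALB, AFP, APOA1 and APOB were added as label checks. The overlap and stretch functions were tested on simulated data. No p-value was computed, since each group is 1 library. Computations used SciPy 1.17.1, NumPy 2.4.6, pandas 2.3.3 and Matplotlib 3.10.9 under Python 3.11.15.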

Additional observations from a re-analysis of the deposited data

How the results depend on the processing

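Of 54 recalculated values, 43 stayed within 1.5 times, or within the 95% Wilson interval of a share, and 11 did not. When the −log10 q-value had to reach 5, the WT phospho-Ser2 RPB1 regions numbered 5 for MIR4274 and 5 for SORCS2, SORCS2 kept 1 WT and 0 KO RPB1 regions, and the median fold enrichment of the WT RPB1 regions was 6.99. With regions taken by position from 3 kb before to 3 kb past SORCS2, SORCS2 had 12 WT RPB1 and 38 WT phospho-Ser2 RPB1 regions, since those named after MIR4274 lie inside it. The longest KO-free stretch held 50 WT regions when only KO regions that reached this q-value bounded it, because the kept region in intron 4 falls short of it, and 9 when only such WT regions were counted. It held 9 with RPB1 alone and was 1131 kb long with phospho-Ser2 RPB1 alone. No interval occurred more than once in a list. No paired analysis was possible because the result comes from no test and each group has 1 library.

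Read counts and inputs were not analysed here, so signal below the calling threshold, DNA content of the locus and depth were not measured. Loss of a region from a list is loss of a call.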
